A study of Mus musculus with 2 samples.

Results

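The inner root sheath is the sleeve of keratinocytes that encases the hair shaft while a follicle grows. Its cells leave the matrix at the base of the hair bulb, fill with keratins and trichohyalin, and then harden as trichohyalin is citrullinated by peptidylarginine deiminases and cross-linked by transglutaminases. The sheath has a Henle layer, a Huxley layer and a cuticle, which harden at different heights of the follicle, and it is lost before the hair leaves the skin surface. Type I keratins such as Krt25, Krt27 and Krt28 pair with type II keratins such as Krt71 and Krt73 to form its filaments.

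The cells described here came from droplet libraries of full-thickness back skin of 1 wild-type (WT) mouse and 1 mouse homozygous for a Card14 knock-in (Card14KI). Both were C57BL/6 mice of 12 months with no treatment named. CARD14 is a keratinocyte adaptor protein that passes signals to NF-kB, and the knock-in mouse is a model of pityriasis rubra pilaris, an inflammatory scaling skin disease. The knock-in allele itself cannot be read from gene counts, and the labels give no hair cycle stage. Skin was digested for 73 min and cleared of dead cells before capture with a 3′ kit, which counts 1 tag per transcript molecule (a UMI).

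Inner root sheath cells were defined as barcodes with at least 500 genes and under 20% mitochondrial UMIs in which Krt25, Krt27, Krt28, Krt71, Krt73 and Tchh together held at least 1% of UMIs. This rule kept 164 of 4335 WT cells (3.78%, exact 95% interval 3.24 to 4.39%) and 1 of 2913 Card14KI cells (0.0343%, 0.000869 to 0.191%). These intervals, like all others given here, cover counting error only. With 1 mouse per genotype there is no replicate, so no difference between genotypes or between cell groups was tested and all values describe these libraries.

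The WT library held 5016 barcodes and 54816411 UMIs, and the Card14KI library 3348 barcodes and 41460580 UMIs. The cell filter removed 681 and 435 barcodes. The libraries shared 2 barcodes, neither of them a member. Members were deeply captured, with 1137 to 206182 UMIs per cell (median 29145.5) and 513 to 8905 genes (median 3924.5), and they held 10.8% of the UMIs of all kept WT cells. Their mitochondrial share ran from 0.133 to 18.1% with a median of 2.90%. Without the cell filter, 221 WT barcodes and the same number of Card14KI barcodes as before, 1, met the keratin and trichohyalin rule.

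The 1% line fell in a sparse range of the WT distribution. The lowest shares inside it were 1.02, 1.18, 1.54, 1.65 and 1.69%, and the highest outside it 0.761, 0.753, 0.706, 0.646 and 0.640%. Only 5 WT cells lay between 0.5 and 1%. The label's own markers (Krt71, Krt25, Krt27, Krt28 and Tchh), which the rule shares, held 1% or more of UMIs in 163 of the 164 members. In Card14KI the highest share of any cell outside the rule was 0.109%.

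**Figure D1:**
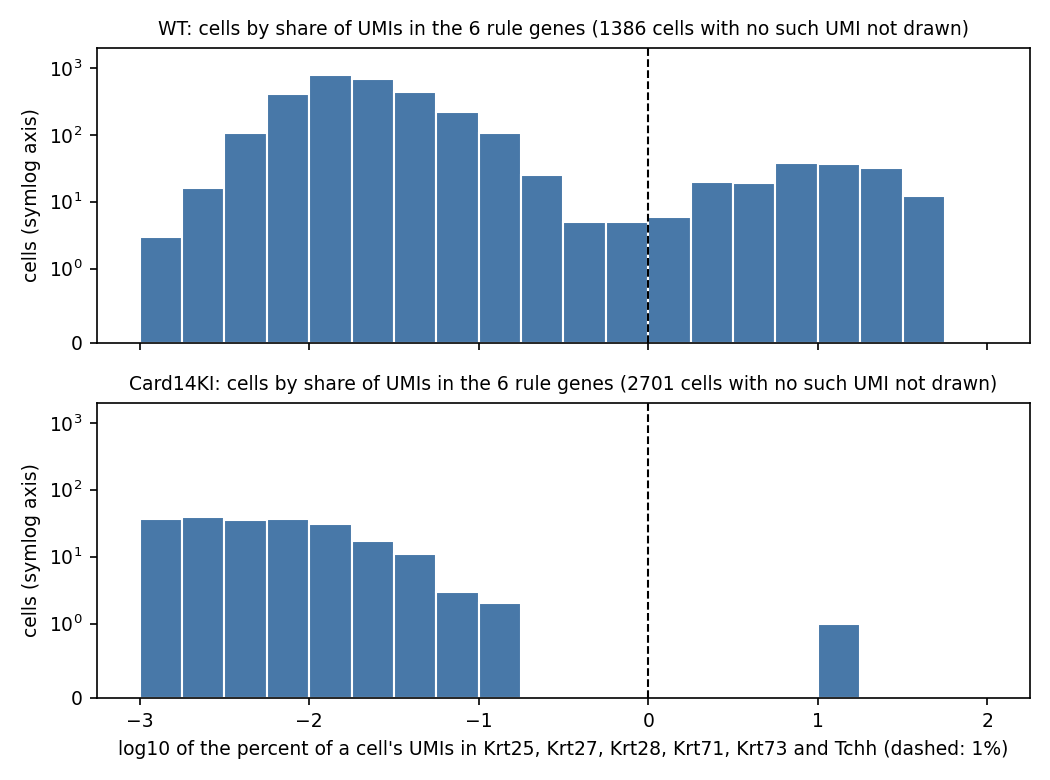
Number of kept cells (symmetric log axis) by the log10 percent of UMIs in the 6 rule genes, WT above and Card14KI below, with the 1% line dashed. WT shows a second mode of 164 cells to the right of the line, and Card14KI has 1 cell there.

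Because the rule chose cells on these 6 genes, their levels are a description of the members and not a finding. Trichohyalin (Tchh), the large matrix protein that links sheath filaments, was present in 160 of the 164 cells and took 0 to 20.5% of a cell's UMIs, with a median of 4.02%. Krt71 ran from 0 to 17.5% (median 2.12%), Krt25 from 0 to 13.5% (median 1.44%) and Krt27 from 0.0142 to 10.9% (median 0.856%). The other 2 were lower, with Krt28 from 0 to 2.74% (median 0.191%) and Krt73 from 0 to 0.732% (median 0.121%). Tchh led the 6 genes in 78 cells, Krt71 in 52, Krt28 in 18, Krt25 in 14 and Krt27 in 2, so the members did not share a single leading transcript.

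The keratins lie in 2 clusters. On mm10, Krt25 (ENSMUSG00000035831, chr11:99315516-99322951), Krt26 (chr11:99328550-99337966), Krt27 (chr11:99345565-99351104) and Krt28 (chr11:99364872-99374903) are neighbours on the minus strand. Krt71 (ENSMUSG00000051879, chr15:101733949-101743109), Krt72 (chr15:101776172-101786460) and Krt73 (chr15:101793308-101802346) form a second minus-strand run. Tchh (ENSMUSG00000052415, chr3:93442330-93449077) lies on the plus strand of chromosome 3, close to Tchhl1 (chr3:93468754-93471980) and Crnn (chr3:93144787-93149819), which belong to the same family of fused S100 proteins.

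The 150 bases before the start of the rule genes are shown because these genes are high together in the members while differing from cell to cell. Sequences are from RefSeq (GRCm38.p6), 5′ to 3′ on the gene's strand, with capitals on matches to TATAAA, to TAATTG on either strand (CAATTA where the match is on the opposite strand) and to CTTTGA on either strand (TCAAAG where opposite).
Krt25, chr11:99322952-99323101, minus strand: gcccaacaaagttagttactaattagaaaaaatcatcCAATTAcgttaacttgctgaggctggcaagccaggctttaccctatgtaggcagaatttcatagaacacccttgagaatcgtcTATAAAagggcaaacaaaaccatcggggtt
Krt27, chr11:99351119-99351268, minus strand: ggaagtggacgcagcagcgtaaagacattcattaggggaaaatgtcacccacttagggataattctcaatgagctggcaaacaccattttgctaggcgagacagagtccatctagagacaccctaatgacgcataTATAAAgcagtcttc
Krt28, chr11:99374904-99375053, minus strand: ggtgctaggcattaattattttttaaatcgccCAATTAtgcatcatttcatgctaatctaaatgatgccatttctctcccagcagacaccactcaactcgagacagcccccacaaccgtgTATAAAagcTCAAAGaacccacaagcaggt
Krt71, chr15:101743098-101743247, minus strand: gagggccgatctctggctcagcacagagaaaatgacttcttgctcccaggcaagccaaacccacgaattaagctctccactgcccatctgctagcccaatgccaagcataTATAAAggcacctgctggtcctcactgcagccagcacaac
Krt73, chr15:101802361-101802510, minus strand: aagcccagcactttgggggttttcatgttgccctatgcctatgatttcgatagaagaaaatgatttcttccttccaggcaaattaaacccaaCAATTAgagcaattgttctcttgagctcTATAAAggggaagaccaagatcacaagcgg
Tchh, chr3:93442180-93442329, plus strand: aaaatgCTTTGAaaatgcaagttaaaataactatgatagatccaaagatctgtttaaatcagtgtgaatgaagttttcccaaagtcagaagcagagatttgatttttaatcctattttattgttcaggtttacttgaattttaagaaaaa

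TATAAA, the core of the TATA box, was found on the gene's strand in 5 of the 6 rule genes, the exception being Tchh, and either strand of 7.57% of 32851 promoter windows of the same length held it. It lay 30 to 25 bases before the RefSeq start in Krt25, Krt28 and Krt73, 40 to 35 in Krt71 and 15 to 10 in Krt27. For Krt27, Krt71 and Krt73 that start differs from the gene coordinates given above. The spread of these positions therefore depends on the annotation used. TAATTG, a core that homeodomain factors can bind, was in 3 of the 6 windows (Krt25, Krt28 and Krt73) against 4.05% of all windows. CTTTGA, a core for LEF and TCF factors, was in Krt28 and Tchh (7.93% of all windows), and GATAAG, which zinc finger factors such as Gata3 can bind, was in 0 of the 6 (3.75%). Every motif was searched on both strands, and none overlaps another. A match is a run of letters in these windows and not a measured binding site.

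Across the 164 cells, Krt71 went with Krt25 (Spearman rho 0.89) and with Krt27 (0.83), while Krt73 ran the other way (rho -0.78 with Krt71). Krt28 also ran against Tchh (rho -0.68) and was weakly tied to Krt73 (0.21). These are descriptions across cells of 1 library that share depth and the constraint that shares sum to a whole. Krt26 and Krt72, known from the cuticle of the sheath and not used by the rule, were found in 19 and 14 members only. CPM is the usual scaling of a gene's UMIs by the total UMIs of the summed cells. Summed over the members, Krt26 had 66.1 CPM (59.7 to 73.1) and Krt72 184.2 CPM (173 to 196), against 0.0833 CPM (1 UMI) and 0.667 CPM (8 UMIs) in other keratin-rich cells. They were detected in 0.302% and 0.0756% of collagen-rich cells, whose median depth was 7637 UMIs against 29145.5 in the members. Krt74 was not analysed here.

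**Figure D2:**
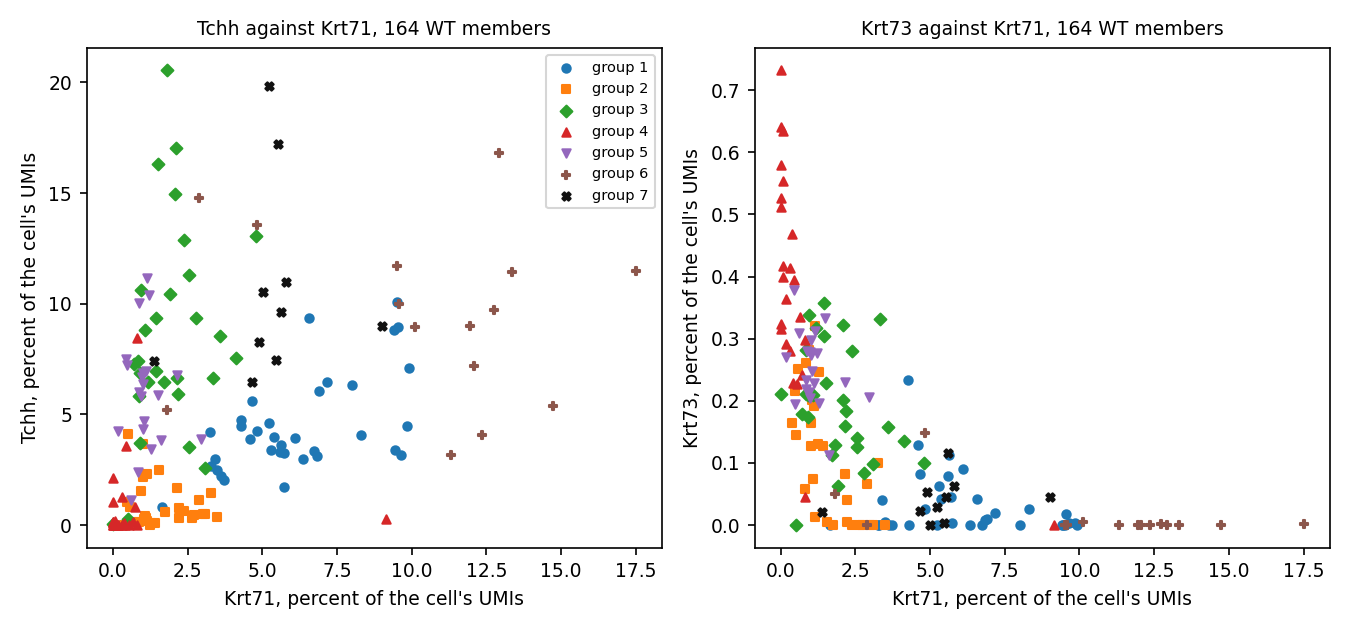
Share of UMIs in Tchh (left) and Krt73 (right) against Krt71 for each of the 164 WT members, with colour and shape for the 7 groups described further on. Group 4 holds the highest Krt73 (to 0.732%) at a median Krt71 of 0.174%, and group 6 reaches 17.5% Krt71 with Krt73 at 0 in 10 of 15 cells.

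The members were then set beside the other keratin-rich WT cells, 478 cells with at least 1% of UMIs in Krt5, Krt14, Krt1, Krt10, Krt15, Krt17, Krt75, Krt6a and Krt79 together. Levels are CPM of summed UMIs, and folds are log2 ratios of CPM + 10 called at 4-fold. Of 8078 genes with at least 100 UMIs in either group, 105 were 4-fold higher in the members (1.3%) and 351 were 4-fold lower (4.35%). The median log2 ratio of all tested genes was -0.25, or -0.086 when UMIs outside the 6 rule genes were the total and -0.11 against Krt1/Krt10-rich cells, so single ratios are best read relative to that shift. Shares of cells with a UMI are given beside the share in collagen-rich cells, which should lack epithelial transcripts.

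Enzymes that harden the sheath were among the genes highest in the members. Of 8 tested genes for crosslinking, citrullination and caspase-14, 4 were 4-fold higher and 1 lower. The list's median log2 ratio was 1.89, beside -0.25 over all genes. Padi3 (chr4:140785365-140810648), the peptidylarginine deiminase that acts on trichohyalin, had 759 CPM (736 to 781) in the members against 1.33 in other keratin-rich cells (16 UMIs). It was found in 138 of 164 members and in 1.21% of collagen-rich cells, and ran from 0 to 4498 CPM per cell with a median of 216. Padi1 had 130.2 CPM (121 to 139.8) against 6 UMIs in all other keratin-rich cells, and Padi4 66.1 against 0.833. These 3 genes are neighbours on chromosome 4.

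Transglutaminases differed less. Tgm6 had 36.9 CPM against 0.667, a log2 ratio of 2.14. Tgm3, the hair follicle transglutaminase, had 42.1 CPM against 6.75 (log2 ratio 1.64) and Tgm1, the keratinocyte transglutaminase, 168 against 60.2 (1.34), both short of 4-fold. Casp14, the protease of the epidermal horny layer, was the lower one, with 13.7 against 121 CPM.

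The fused S100 and cornified envelope genes split by family member. Of 18 tested, Crnn and Tchhl1 were 4-fold higher and 7 were 4-fold lower (median -1.23). Crnn (cornulin) had 648 CPM (627 to 669) against 0.917 (11 UMIs), from 0 to 6810 CPM per cell. Tchhl1, the nearest relative of trichohyalin, had 345 CPM against 0.417 (5 UMIs), but in only 22 cells, up to 14801 CPM. The epidermal members of the list went the other way: Flg (filaggrin) had 1.55 CPM against 1101, Lor (loricrin) 36.6 against 2525 and Hrnr (hornerin) 7.04 against 406. Sprr1a, Crct1 and Cdsn did not pass 4-fold (log2 ratios 1.56, 0.70 and -0.45) although single members held as much as 39560.5, 81888 and 6266 CPM. Sprr and Lce genes are close copies of one another, so reads may be split among them and their single values are uncertain.

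Among 27 tested transcription factors of the follicle, Msx2, Dlx3, Lef1 and Cux1 were 4-fold higher and Sox9, Trp63, Barx2 and Lhx2 4-fold lower, with a median of -0.81. Msx2, a homeobox factor downstream of BMP, had 247 CPM (235 to 260.5) against 3.83 and was found in 151 cells, against 1.13% of collagen-rich cells. Dlx3, a homeobox factor needed for hair formation, had 312 CPM against 17.2 and was found in 155 cells, against 0.680%. Lef1, the WNT effector of the hair matrix, had 64.4 CPM, in 75 cells, against 6 UMIs in all other keratin-rich cells (2.65% of collagen-rich cells), and Cux1 307 against 61.7.

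Gata3, a regulator of inner root sheath fate, had 419 CPM against 265 (ratio 1.58, 1.501 to 1.67) and did not reach 4-fold. Its level in Krt1/Krt10-rich cells was 366 CPM, near that of the members, so it did not set them apart from the epidermis in this library. Foxn1 had 18.7 CPM against 8.75, and Hoxc13, a hair shaft factor, 20.1 against 92.3. Sox9, the outer root sheath and stem cell factor, was at 7.39 CPM against 365, and Trp63, the basal keratinocyte factor, at 23.7 against 257. Against Krt1/Krt10-rich cells, the Sox9 ratio shrank to -1.58 and that of Lhx2 changed sign to 0.31.

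Among 32 signalling genes tested, 4 were 4-fold higher (Wnt5a, Tgfa, Id3 and Bmp4), 5 lower (Wnt3, Jag2, Fgfr3, Fst and Ctgf) and the median was -0.07. Wnt5a, a noncanonical WNT ligand, had 295 CPM (281 to 309) against 8.58, and Nkd2, an inhibitor of WNT signalling found outside the list, 215 against 2.08. Tgfa, an EGF receptor ligand whose loss gives wavy hair in mice, had 304 CPM against 29.3, in 64 cells only (0.756% of collagen-rich cells). Of the BMP branch, Bmp4 (66.6 against 8.67 CPM) and the target Id3 (729 against 129) were 4-fold higher. The target Smad7 fell short (193 against 44.5, log2 ratio 1.90), and the pseudoreceptor Bambi (337 against 8.08) came from outside the list. Bmp2, Bmp8a, Bmpr1a, Id1, Id2 and Smad6, also on the list, were not among its 4 higher genes. Bmp4 sat at the 4-fold line and fell to 1.97 without its highest cell. Notch1 (52.0 against 153 CPM) and its target Hes1 (174 against 278) were also lower, short of 4-fold. Of the 5 lower genes, 4 lost the 4-fold difference against Krt1/Krt10-rich cells: Fst and Ctgf were at 0.17 and 0.19, Jag2 at -1.17 and Fgfr3 at -1.16. With equal weight per cell, Jag2 (-1.77), Fgfr3 (-1.46) and Ctgf (-1.48) were also short of it.

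Protease and hair-loss genes included 3 that were 4-fold higher of 21 tested. Prss53, a serine protease tied to hair shape in people, had 381 CPM (365 to 397) against 4.83, and ran from 0 to 1429 CPM per cell (median 289). Lpar6, the lysophosphatidic acid receptor mutated in woolly hair, had 125 CPM against 3.33, and Ctsc, a lysosomal protease, 831 against 66.1. Gsdma, the gasdermin whose relatives are mutated in hairless mouse strains, had 363 against 85.8 CPM (log2 ratio 1.96). On the lower side were 6, including Cst6, the cystatin that restrains legumain and cathepsins (243 against 7777 CPM), and Spink5, the kallikrein inhibitor (31.9 against 953).

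Calcium-binding S100 genes were another group with large differences in a few members. Of 15 tested, S100a3 and S100a7a were 4-fold higher and 0 lower, with a median of 0.28. S100a3, known from the hair cuticle, had 912 CPM (888 to 937) against 26.2, in 68 cells and 3.40% of collagen-rich cells. The highest member held 2946 of its UMIs and 96 of the 164 members had none, so this level is not typical of the members. S100a7a had 94.1 CPM against 3 UMIs in all other keratin-rich cells (ratio 377 with a counting interval of 128 to 1831). S100a16 was found in all 164 members, at 284 to 3318 CPM per cell, with 1579 CPM over the members against 566.

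Beyond the lists, the largest ratio belonged to Prr9 (ENSMUSG00000056270, chr3:92122204-92123947), a proline-rich gene of the epidermal differentiation region, at 6573 CPM (6507 to 6639) against 22.2. Fabp4, a fatty acid binding protein best known from fat and vessels, had 2391 CPM against 3.25, yet its median over members was 0 because only 80 cells held a UMI. Collagen-rich cells had 33.4 CPM of it, with a UMI in 6.95%. Crym (thyroid hormone binding crystallin) had 544 CPM against 18 UMIs in all other keratin-rich cells, and Fbp1 (gluconeogenic fructose bisphosphatase) 199 against 0.333 (4 UMIs). Ass1 (arginine synthesis), Dusp2 (a MAP kinase phosphatase) and Upp1 (uridine phosphorylase) had 488, 577 and 173 CPM against 16.2, 24.5 and 1.75. A set linked to metal and haem handling stood beside them: Slc40a1, the iron exporter, 318 against 23.2 CPM, Slc25a37, the mitochondrial iron importer, 223 against 9.42, Slc39a8, a zinc and manganese importer, 503 against 52.8, and Bpgm, a red cell enzyme, 212 against 10.8. This grouping was made after the values were seen. Red cell markers gave 17.5 CPM in the members against 29.3 in other keratin-rich cells, with Alas2 at 0.

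**Figure D3:**
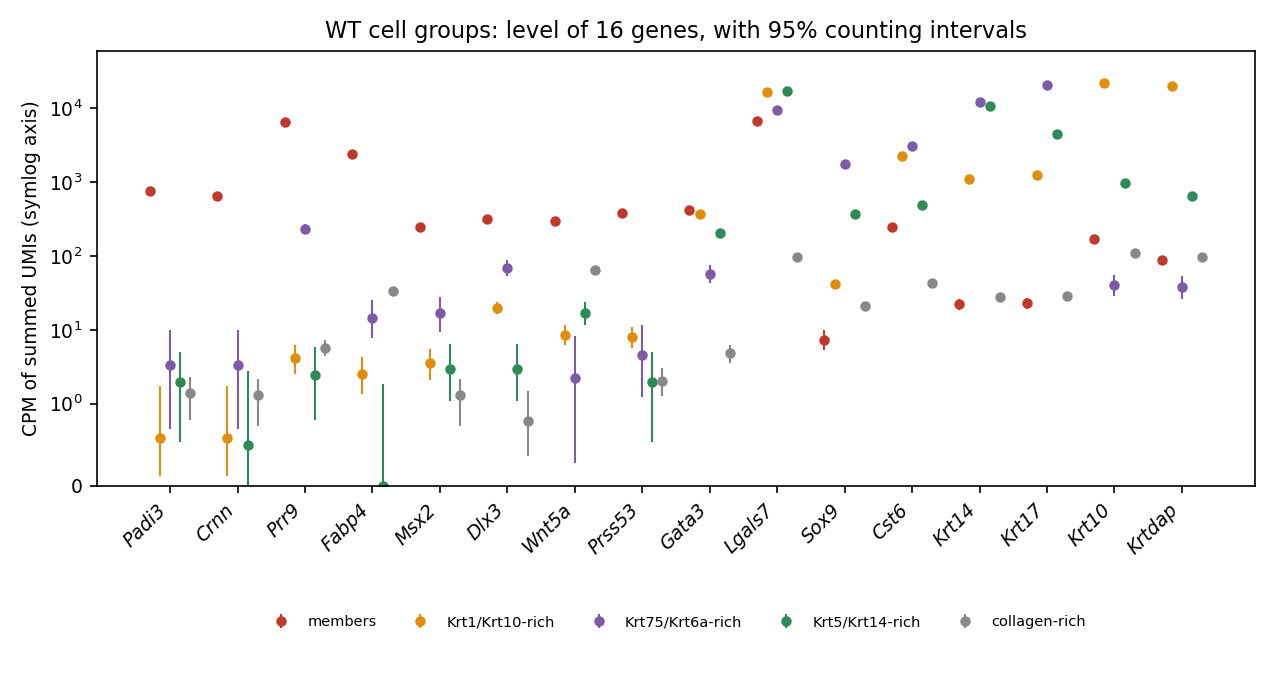
CPM of summed UMIs (symmetric log axis) of 16 genes in the 164 members and 4 other WT cell groups (168 Krt1/Krt10-rich, 35 Krt75/Krt6a-rich, 78 Krt5/Krt14-rich, 1323 collagen-rich), with exact Poisson intervals. Padi3 to Prss53 are highest in the members, Gata3 is shared with Krt1/Krt10-rich cells, and Sox9 to Krtdap are low in the members.

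Keratins of the neighbouring layers were low. Of 13 tested genes of the outer root sheath and companion layer, 11 were 4-fold lower and 0 higher (median -4.02), and of 10 interfollicular genes 7 were lower (median -3.40). The reference cells were chosen on 9 of these keratins, so these counts are not a finding. Krt17 had 22.8 CPM against 6196, Krt14 22.3 against 3951, Krt5 32.8 against 2266 and Krt10 170.2 against 9945. Krtdap, which was not used to choose either group, had 86.9 CPM against 9882. Dmkn (dermokine), by contrast, had 2334 CPM against 2948 and stayed near the epidermal level. Against Krt1/Krt10-rich cells Krt75, the companion layer keratin, was at 1.06, since both groups held little of it (14.1 and 1.56 CPM).

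Several junction genes had levels near those of other keratinocytes. None of the 24 tested was 4-fold higher, but only 1.3% of all genes were, so this count says little. The desmosomal plaque gene Dsp had 1074 CPM against 1641 and Perp 2043 against 2528. Gjb2 (connexin 26) had 752 CPM against 249 (log2 ratio 1.56), and Dsc3, the basal desmocollin, 74.4 against 643.

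Cell cycle genes were low. All 22 tested cell cycle genes had log2 ratios below 0 (median -1.06), beside 5478 of all 8078 tested genes (median -0.25). Of the 22, 1 (Ube2c) was 4-fold lower, a share near the 4.35% over all genes. The list also holds the cell cycle inhibitors Cdkn1a, Cdkn1b and Cdkn1c, so it is not a measure of division alone. Mki67 had 26 UMIs over 164 cells (4.47 CPM) against 23.8 CPM in other keratin-rich cells.

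Of 26 genes around CARD14, NF-kB, IL-17 and IL-36, 1 was 4-fold higher in WT members (S100a8) and 5 were lower (Nfkbia, Nfkbiz, Tnfaip3, Il1f6 and Ccl20), with a median of -0.89. Card14 itself had 22 UMIs in 18 members, 3.78 CPM (2.37 to 5.72) against 22.5, beside a share of 0.605% in collagen-rich cells. S100a8, a calprotectin subunit best known from neutrophils, had 164 CPM (154 to 175) against 2.25, in 57 members and 1.74% of collagen-rich cells. Its partner S100a9 had 25.6 against 6.83. The immune marker list gave 169 CPM in the members against 74.4, and that list contains S100a8; Cd3e, Trac and C1qa were at 0. Nfkbia lay on the 4-fold line (294 against 1207 CPM) and its log2 ratio was -1.64 when every cell had equal weight.

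Of 16 immediate early and heat shock genes, which respond to tissue dissociation, 0 passed 4-fold upward and 3 (Fos, Fosb and Atf3) downward. Over all genes 1.3% passed upward and 4.35% downward, so 0 of 16 upward says little. The list had 4 ratios above 0 and 12 below (median -1.06), beside 2600 and 5478 over all genes (median -0.25). A response to dissociation was not tested. Fos had 385 CPM against 1832, while Hspa1a had 1076 against 457. Its near-identical copy Hspa1b had 1065 against 666, and reads may be split between them.

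The members were next grouped on 1000 variable genes without the 6 rule genes and the cell cycle list. This gave 7 groups of 35, 30, 29, 24, 21, 15 and 10 cells. Their leading genes were picked on the same cells, so the groups are described and not tested, and they carry numbers because no layer markers were chosen in advance. Within groups, CPM is over UMIs outside the 6 rule genes. Of 4788 genes, the number 4-fold higher than in the other members was 17 in group 1 (0.355%), 8 in group 2 (0.167%), 53 in group 3 (1.11%), 32 in group 4 (0.668%), 2 in group 5 (0.0418%), 100 in group 6 (2.09%) and 137 in group 7 (2.86%). In the same order, 108 (2.26%), 123 (2.57%), 81 (1.69%), 126 (2.63%), 93 (1.94%), 119 (2.49%) and 501 genes (10.5%) were 4-fold lower.

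Group 4 (24 cells) was led by S100a3, Krt72, Cryba4, Dapl1, Ctps, Runx1, Sox21 and Avp. It held 996 of the 1072 Krt72 UMIs (1490 CPM, in 11 cells) and 346 of the 385 Krt26 UMIs (in 4 cells). Its rule gene share was the lowest of the groups (median 2.50%), with the highest median Krt28 (0.773%) and Krt73 (0.379%) and 2 cells without Krt71. S100a3 had 7269 CPM there, from 0 to 40372 per cell, and its log2 ratio against the other members went from 5.97 to 4.79 without its highest cell. Some follicle transcription factors, picked after their values were seen, were also highest here. Hoxc13 had 136 CPM (in 12 of the 24 cells), Msx1 102, Sox21 174 and Runx1 239. Others of that list were not: Foxn1 was highest in group 1 (42.6 CPM against 32.9 in group 4) and Lef1 in group 5 (183 against 130).

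The hair shaft keratins Krt32 and Krt35 lay almost wholly in group 4. All 480 Krt35 UMIs and 408 of 411 Krt32 UMIs were there, in 4 and 5 cells. The highest cell held 365 of the Krt35 UMIs, and the highest cell for Krt32 held 373. Without the highest cell the members' log2 ratios against other keratin-rich cells fell from 3.18 to 1.56 for Krt35 and from 2.47 to 0.19 for Krt32. Krtap17-1, the only one of 57 hair keratin-associated genes with enough UMIs, had 154 UMIs in 7 members of groups 3, 4 and 7 (12, 98 and 44 UMIs), and 31 of the 57 were at 0. Krt85 was not analysed here.

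Group 1 (35 cells) had a median rule share of 16.8% and was led by Sytl2, Map2, Epgn, Ly6d, Fgfbp1, Tdh, Fam46a and Fgf5. Sytl2, a granule trafficking protein, had 524 CPM against 42.5 in the other members and was found in 34 of the 35 cells. Ly6d ran from 765 to 17522 CPM per cell (median 7962). Fgf5, the signal that ends hair growth, had 86.2 CPM in 25 of the cells, was seen in groups 2 and 6 (14.3 and 51.5 CPM), and had 0 UMIs in groups 3, 4, 5 and 7. Krt73 had a median of 0.00432% in group 1 and was missing from 14 cells.

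Group 6 (15 cells) shared the Krt25, Krt71 and Sytl2 profile of group 1 at the highest rule share of all, a median of 33.9%. It was led by Krt6a, Lce1m, Capn8, Arg1, Crct1, Tmem229b, Cpa4 and 2310046K23Rik. Krt71 reached a median of 11.9% of UMIs and Krt25 9.47%, while Krt73 was missing from 10 of the 15 cells. Sprr1a had 28601 CPM, from 6072 to 79381 per cell. Crct1 had 23791 CPM, from 740 to 141915. The lysosomal proteases Ctsb and Ctsl had 3425 and 2785 CPM but medians of 635 and 252, so a few cells carried most of it. The desmosomal genes Dsc1 (2234 CPM) and Perp (8514 CPM) were highest in this group. Interfollicular markers were too, at 6605 CPM as a list, of which Sbsn made 6448.

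Group 5 (21 cells) was led by S100a10, Smim3, Basp1, Lap3, Nkd2, Arl4a, Wnt5a and Pxdc1. Wnt5a was found in all 21 cells at 175 to 1689 CPM (median 648), and Nkd2 had 691 CPM. Lef1 was highest here with 183 CPM, in 18 cells. Without its highest cell, the log2 ratio of Basp1 fell from 2.03 to 1.56, so of the 2 called genes S100a10 alone kept 4-fold (2603 against 519 CPM, log2 ratio 2.29 without its highest cell). Smim3 was past 4-fold but had 43 UMIs in all members, under the minimum of 100.

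Group 3 (29 cells) was led by Dcn, Tgfa, Slain1, Lum, Rnase4, Slc5a8, Krt80 and Nppb, at a median rule share of 11.8%. Tgfa had 1255 CPM against 124 and was found in 27 cells, with a median of 1264. Tchh (median 7.41%) outweighed Krt71 (1.82%) there, Fabp4 had 8029.5 CPM, Prr9 19653, S100a6 15808, S100a8 575 and Padi3 2402, the highest Padi3 of the 7 groups. The fibroblast transcripts Dcn and Lum rested on few cells: without its highest cell, the log2 ratio of Lum fell from 2.94 to 0.98 and that of Dcn, at 725 against 36.0 CPM with all cells, was 2.42. Fibroblast markers summed to 1250 CPM in this group and 65.4 to 1250 CPM over the 7 groups, with 2 members at 1% or more of UMIs, and their part in the group's profile was not tested.

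Group 7 (10 cells) resembled group 3 at a higher rule share (median 21.8%). Its leading genes were Tchhl1, Lrrc15, 2210017I01Rik, Bmp2, Cdsn, Hmox1, Pinlyp and S100a7a. Tchhl1 (ENSMUSG00000027908) had 7337 CPM against 49.9, in 9 of the 10 cells. Lrrc15 ran from 739 to 23394 CPM, Cdsn (corneodesmosin) from 530 to 9353 and Bmp2 from 0 to 4128. Padi1 and Gsdma were highest here, at 1119 and 1479 CPM. Its many lower genes stood beside a median of 2798.5 genes per cell, the fewest of the 7 groups. Of its leaders, 2210017I01Rik rested on 3 cells and fell from 5.09 to 1.21 without the highest. Gata3 had 41.3 CPM in group 7 and 84.1 in group 6, against 224 to 833 in the other 5 groups.

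Group 2 (30 cells) had a low rule share (median 4.89%) and Krt25 and Krt71 near 1.45 and 1.26% of UMIs. Its leading genes, Krt77, Krt10, Krtdap, Apoe, Krt5, Krt14, Tfap2b and Idh1, are mostly genes of the epidermis. Several of them rested on the cell with most UMIs of the gene, which was not the same cell for all. Without that cell the log2 ratio of Krt77 went from 4.10 to -0.07, of Krtdap from 3.24 to -0.12 and of Krt10 from 3.81 to 0.46. Leaving out the cell with most UMIs of Apoe or Krt14 took Apoe from 2.72 to 1.90 and Krt14 from 2.34 to 1.26. Tfap2b, an AP-2 factor found in 27 of the 30 cells at 245 CPM against 65.4, did not depend on a single cell but stayed below 4-fold.

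**Figure D4:**
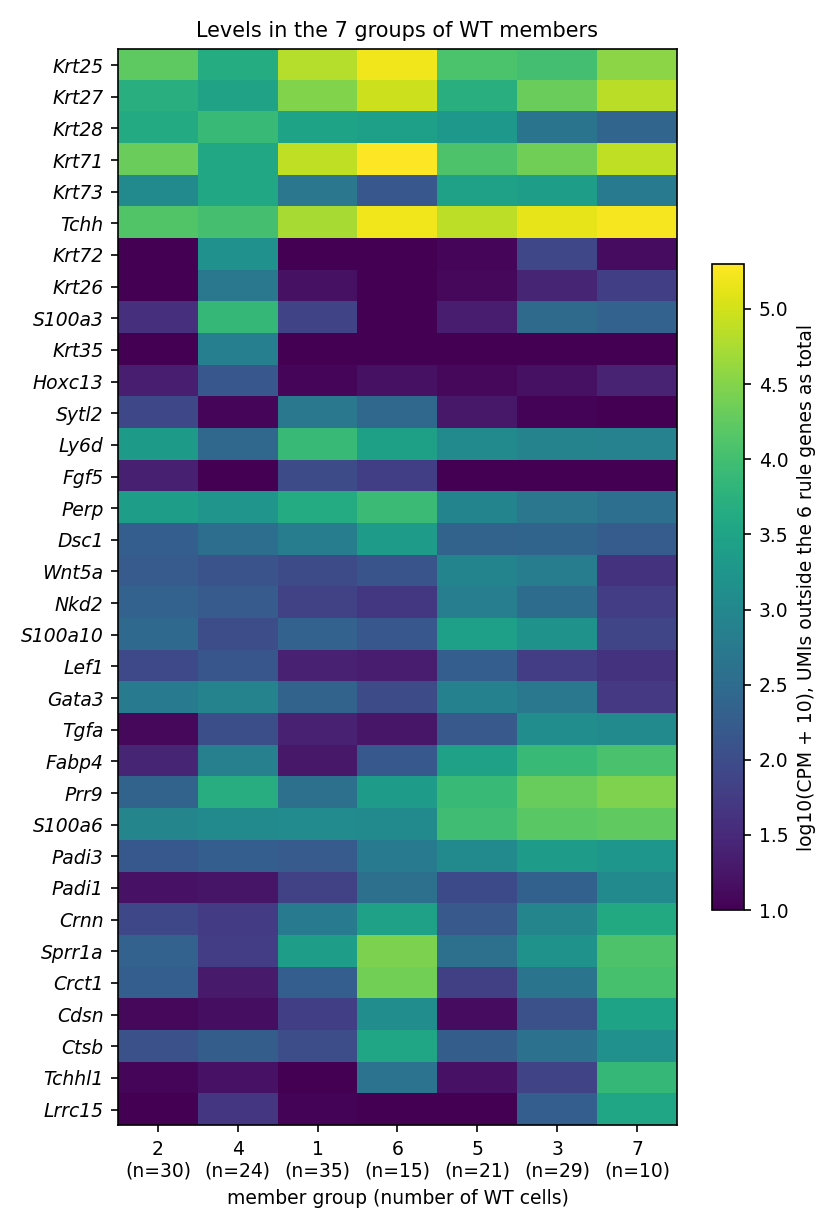
Heat map of log10(CPM + 10), over UMIs outside the 6 rule genes, for 34 genes (rows) in the 7 groups of WT members (columns, with cell numbers). Krt72, Krt26, S100a3 and Krt35 stand out in group 4, Sytl2 and Fgf5 in groups 1 and 6, Prr9, Fabp4 and S100a6 in groups 5, 3 and 7, and Sprr1a and Crct1 in groups 6 and 7.

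With a coarser grouping the 7 groups fell into 4 without any cell of a group being split off: groups 2 and 4 joined (54 cells), groups 1 and 6 (50 cells), groups 3 and 7 (39 cells), and group 5 stood alone (21 cells). Sytl2 was at 524 and 268 CPM in groups 1 and 6 and at 0.977 and 0 in groups 3 and 7, with 74.0, 1.496 and 8.64 CPM in groups 2, 4 and 5. Fabp4 was at 8.72 and 144 CPM in groups 1 and 6 against 8029.5 and 11513 in groups 3 and 7. Upp1 (2.91 and 5.42 against 628 and 1351) and Slc40a1 (14.5 and 10.8 against 1066 and 2115) had the same order. Perp and Ly6d ran the opposite way, with 4314 and 8514 CPM of Perp in groups 1 and 6 and 499 and 355 in groups 3 and 7. Dlx3 differed little across all 7 groups, from 326 to 442 CPM.

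Of all WT members, 6 were among the 174 WT cells with the highest doublet scores, at most 1 of them in each of 6 groups and 0 in group 1. The caller's own threshold marked 2 of 4335 WT cells, too few to have worked, and doublets were therefore not removed. Without those 6 cells the log2 ratio of Krt35 fell to 1.59 and that of Lum in group 3 to 1.01. Endothelial markers gave 2.06 CPM over the members, melanocyte markers 77.8 CPM with Tyrp1, Tyr and Mlana at 0, and interfollicular markers 1184 CPM with 1 cell at 1% or more. Melanocyte markers were unevenly spread, from 3.88 CPM in group 1 to 582 in group 7. Nearly all of that list came from Mitf, at 76.6 CPM in the members.

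Ordering the members by the share of UMIs in the rule genes gave 5 bands: 1 to 2% (8 cells), 2 to 5% (32), 5 to 10% (43), 10 to 20% (44) and 20% or more (37). A band is a range of the measure that chose the cells, not a cell type, and the lowest held too few cells to rest a trend on. From the second band on, Gata3 went from 756 to 674, 385 and 240 CPM, Lef1 from 122 to 110, 68.0 and 19.9, and Notch1 from 99.4 to 74.1, 48.0 and 14.7. Padi3 ran the opposite way, from 135 to 732, 1183 and 1321 CPM, and Gsdma from 84.8 to 289, 529 and 737. Of the hardening and envelope genes, 4 chosen after their values were seen had their highest level in the top band: Sprr1a went from 42.4 to 444, 1689 and 12973 CPM, Crct1 from 3.97 to 9779 between the second and the fifth, Tchhl1 from 1.32 to 1547 and Cdsn from 3.97 to 1042. Of the 37 cells in the top band, Sprr1a had a UMI in 37, Cdsn in 30, Crct1 in 29 and Tchhl1 in only 11. Padi1 also had its highest level in that band (399.6 CPM, against 1.32 in the second band). Others of these lists did not follow: Tgm3 went from 72.9 to 38.7, 48.0 and 47.7 CPM from the second band on, Lor from 37.1 to 46.1, 43.1 and 47.7, and Ivl (involucrin) from 5.30 to 37.0, 28.7 and 20.8.

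The mix of groups changed along the same axis. The second band was made of 15 cells of group 2, 15 of group 4 and 2 of group 5, and the fifth of 12 cells of group 1, 14 of group 6, 7 of group 7 and 4 of group 3. A level across bands therefore mixes differences within and between groups. Dlx3 stayed between 311 and 398 CPM from the second band to the fifth.

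**Figure D5:**
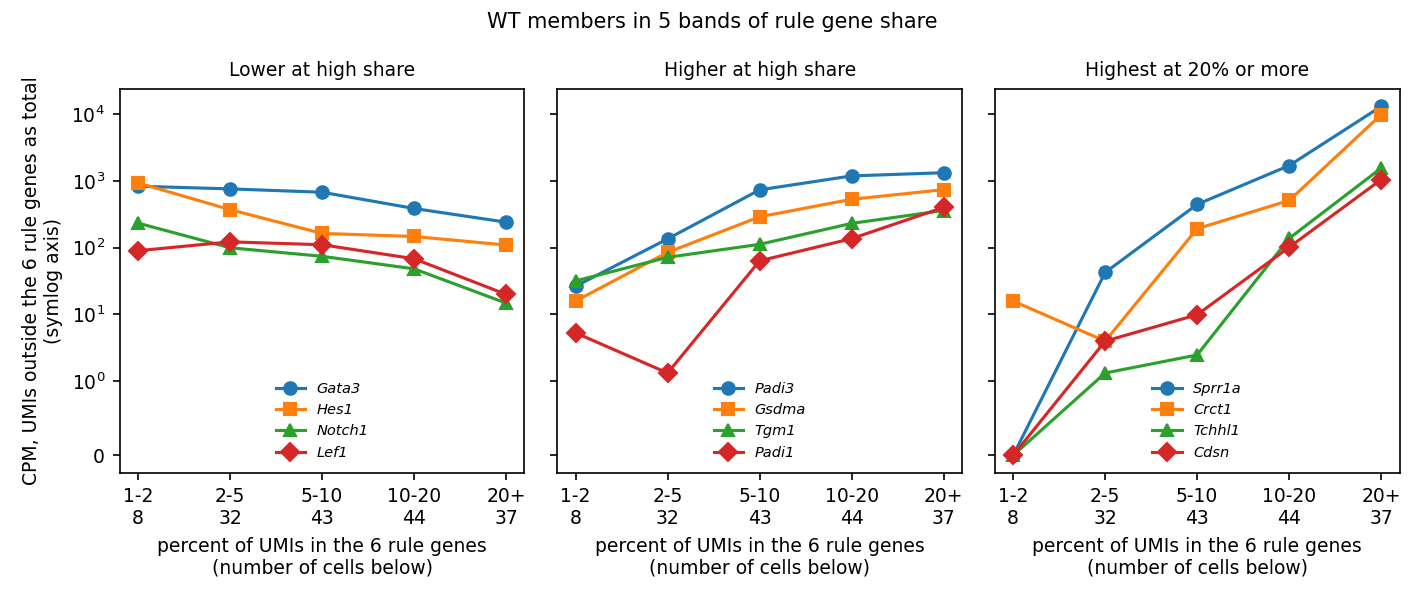
CPM (symmetric log axis, UMIs outside the 6 rule genes as total) of 12 genes in 5 bands of rule gene share, with the number of WT cells under each band; genes were placed in panels after their values were seen. Gata3 and Notch1 are lower in the top band, Padi3 and Gsdma higher, and Sprr1a, Crct1, Tchhl1 and Cdsn are highest at 20% or more.

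In Card14KI, 1 cell met the rule. It had 16565 UMIs, 2913 genes and 3.51% mitochondrial UMIs, and its rule genes held 17.3% of UMIs, more than in 118 of the 164 WT members. It carried 1041 UMIs of Krt71, 797 of Krt27, 654 of Tchh, 349 of Krt25 and 24 of Krt73. Krt28 had 0 UMIs, as in 11 WT members, and Krt26 had 11. Padi3 had 58 UMIs (0.350% of the cell, above 160 WT members), Fabp4 276 (above 160), Prr9 258 (above 140) and S100a6 274 (above 154). Tgfa (46 UMIs, 0.278%) and Gsdma (26 UMIs, 0.157%) were above all 164 WT members. Their counting intervals (0.203 to 0.370% and 0.103 to 0.230%) still included the highest WT values (0.245 and 0.146%). Ly6d and Sytl2 had 0 UMIs, as in 23 and 104 WT members. With a single cell no profile of the genotype can be given.

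The near absence of members in Card14KI held under all 7 other cell filters and rule settings, each of which gave 1 cell, against 124 to 221 in WT. Rule gene transcripts outside the members were also lower in Card14KI. They are not a separate measure of the difference in members, because the rule chose cells on these same genes. Collagen-rich cells, which should not express them, had 142 CPM of the 6 genes in WT (135 to 149; a UMI in 67.3% of cells) and 8.38 CPM in Card14KI (5.05 to 13.1; 2.53% of cells, at a median depth of 5053 UMIs). All non-members had 162 CPM in WT and 8.30 in Card14KI. Krt25 alone was at 26.8 CPM in WT collagen-rich cells, 27.7 in other keratin-rich cells and 16.4 in Krt1/Krt10-rich cells, a like low level that is read as background. It was at 157 CPM in the 35 Krt75/Krt6a-rich cells.

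Hair fibre transcripts outside the members were also lower in the Card14KI library. Hair shaft keratins in non-members summed to 1247 CPM in WT and 14.2 in Card14KI, and hair keratin-associated genes to 2736 and 10.2 CPM. Cells rich in Krt75 or Krt6a, which mark the companion layer among others, numbered 35 in WT and 0 in Card14KI. The follicle factors Lef1, Msx2, Hoxc13 and Dlx3 differed far less: they summed to 61.5 CPM in WT non-members and 26.6 in Card14KI, with a UMI in 11.6 and 11.3% of cells. This sum covers all non-members and does not count follicle cells. Other keratin-rich cells, which also held Dlx3, numbered 478 in WT and 645 in Card14KI. In collagen-rich cells these factors had 9.15 CPM (7.48 to 11.1) and 10.1 CPM (6.43 to 15.2). Melanocyte markers also differed less, with 60.5 and 37.8 CPM in non-members. By contrast, Krt1/Krt10-rich cells numbered 168 in WT and 353 in Card14KI. With 1 mouse each, genotype, hair cycle stage, the piece of skin and cell recovery cannot be told apart as sources of the difference in members.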

How the data were processed

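Values are UMI counts per gene and cell from filtered matrices that the authors deposited. Per the labels' protocols, libraries were made with a 10x 3′ kit (version 3.1) and sequenced as 150-base paired ends; Cell Ranger is given as 6.0.2 in the submitters' processing notes (genome mm10) and 5.0.0 in the file headers. Each genotype is 1 mouse, so no test was run. UMIs were summed over cells and divided by the group's total (CPM), with exact Poisson, conditional binomial or Clopper-Pearson 95% intervals for counting error. Folds used CPM + 10 and genes with 100 or more UMIs in either group; depth is given in the report. Groups came from Leiden clustering (scanpy 1.11.5; 15 components, 10 neighbours, resolution 0.5). The fold step was run on simulated Poisson counts of well-covered genes with planted changes well past 4-fold. This checks that the call runs, and it cannot speak to calls that rest on a single cell.

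The members and the 16 gene lists were chosen with earlier results of these data known. Genes set to be named were the rule genes, list members with 100 or more UMIs and 8 leaders per group. The 20 highest and 10 lowest features beyond the lists with a UMI in 25% of cells were also set. The 10 lowest and some of the 20 highest are not described in the text. Other genes named (such as Card14, Mki67 and Msx1) or singled out among these were chosen after their values were seen. Doublets were scored but kept. Alternatives to filters, rule, reference, totals, weights and resolution were run. Promoters are RefSeq windows on GRCm38.p6. Some results on junction genes are not reported here.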

Additional observations from a re-analysis of the deposited data

How the results depend on the processing

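WT members numbered 124 to 221 over 7 other filters and rule settings, and Card14KI had 1 in each. With a pseudocount of 1 CPM in place of 10, 182 genes were 4-fold higher and 1072 lower, against 105 and 351. Resolution 0.3 gave 4 member groups in place of 7, and resolution 0.8 again gave 7. Of 128 listed or leading genes past 4-fold, 16 dropped below it with equal weight per cell, 15 with Krt1/Krt10-rich cells as reference, 6 with UMIs outside the 6 rule genes as total, 5 with the rule at 5%, 1 at 2%, 5 without the highest doublet scores and 0 with the stricter cell filter or the smaller pseudocount. Another 5 of the 128 comparisons dropped below it without the cell with most UMIs of the gene. Against Krt1/Krt10-rich cells, 20 of 317 tested log2 ratios of such genes changed sign. Of those past 4-fold, Lhx2 (0.31), Fst (0.17), Ctgf (0.19) and Krt75 (1.06) did so, the reference holding few UMIs of each. In group 2, leaving out the cell with most UMIs of the gene turned Krt77 in group 2 (-0.065) and Krtdap in group 2 (-0.12). With the rule at 5%, Krt32 fell to 0.20, Cryba4 to 0.50 and Ctps to 0.84; Krt15 was -1.86 with equal weights and Lce1m -0.29 without high doublet scores. The cause was not tested. No paired analysis was possible because each genotype has 1 mouse. Genes under 100 UMIs in both groups, and any profile of Card14KI members, are beyond this depth.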
